A study of Homo sapiens with 6 samples.

Results

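The transcripts examined here encode 10 basic leucine zipper (bZIP) transcription factors, namely FOS, FOSB, FOSL1 and FOSL2 of the Fos family, JUN, JUNB and JUND of the Jun family, BATF and BATF3 of the BATF family, and the small Maf protein MAFK. They were chosen by gene symbol and are 10 of 61541 genes counted by bulk RNA-seq in H9 cells. H9 is a CD4+ T-cell line of 1 clone from a cutaneous T-cell lymphoma (CTCL), wild type per its labels and grown in RPMI with 10% serum. The 3 AZD4573 libraries came from cells exposed for 4 h to AZD4573, a selective inhibitor of the transcriptional kinase CDK9 (50 nM, a dose that comes from the study's figure legends and not from the labels), and the 3 DMSO libraries from vehicle-treated cells, whose labels give no time. Nothing in the labels says that the libraries came from separate cultures, so p-values measure only the spread between these libraries.

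AP-1 is a dimer. Jun proteins pair with each other or with Fos proteins, whereas Fos proteins pair with a Jun partner, and both bind the TGANTCA element. BATF and BATF3 lack an activation domain, pair with Jun proteins and, in lymphocytes, bind composite elements next to IRF4, IRF8 or NFAT. Small Maf proteins such as MAFK also lack an activation domain, and pair with NRF or BACH proteins. In T cells AP-1 is induced by the T-cell receptor, and JUNB and BATF3 are known for their abundance in some T-cell lymphomas. FOS, JUN and JUNB are textbook immediate-early genes with short-lived mRNAs.

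Total counts were 70367303 to 76571157 per DMSO library and 52101868 to 63795185 per AZD4573 library. All 10 transcripts were among the 17678 genes that passed the filter on low counts, FOSL1 only through the AZD4573 libraries. Levels are given as normalised CPM, counts-per-million of a library's total after TMM scaling, which sets libraries to a common level by the bulk of their genes. Of 12 T-cell markers, 10 reached 1 CPM in a library, whereas CD2 stayed at or below 0.166 CPM and CD7 at or below 0.786 CPM. Of 15 markers of other cell types, only CD79A (55.0 to 98.4 CPM), CD79B and COL1A1 reached 1 CPM. The 13 mRNAs of the mitochondrial genome, which RNA polymerase II does not transcribe, took 3.04 to 3.22% of the counts with DMSO and 4.67 to 4.98% with AZD4573. Scaled to these mRNAs in place of TMM, the median log2 fold change of all genes tested was -0.71 rather than 0.03. Bulk libraries cannot tell a change per cell from a change in the number of cells.

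Upon AZD4573 treatment the 10 transcripts did not move together. BATF fell by 1.54 on the log2 scale, JUND by 0.50 and FOS by 0.39, under each scaling run. FOSL1 rose by 1.56, MAFK by 0.66, BATF3 by 0.33 and JUNB by 0.22 with TMM, of which MAFK, BATF3 and JUNB turned to -0.09, -0.42 and -0.52 when scaled to the mitochondrial mRNAs. FOSB, FOSL2 and JUN did not pass an adjusted p of 0.05 (Benjamini-Hochberg over all genes tested, from the quasi-likelihood test of edgeR, as for each adjusted p here unless another tool is named). Thus 3 of 10 were called lower and 4 of 10 higher, where 37.4% of all genes tested were called lower and 37.3% higher. With a fold change of at least 1.5 as well, only BATF was called lower and FOSL1 and MAFK higher, against 23.7% and 22.7% of all genes. The counts of rises include FOSL1, which passed the filter on low counts only through the AZD4573 libraries. With at least 10 counts in every library FOSL1 was not tested, and 3 members were called higher (5913 of 15247 genes). The groups did not overlap for 4 members that were lower with AZD4573 and 4 that were higher, against 38.7% and 39.0% of all genes. The members' median log2 fold change was 0.01 beside 0.03 for all genes tested.

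**Figure D1:**
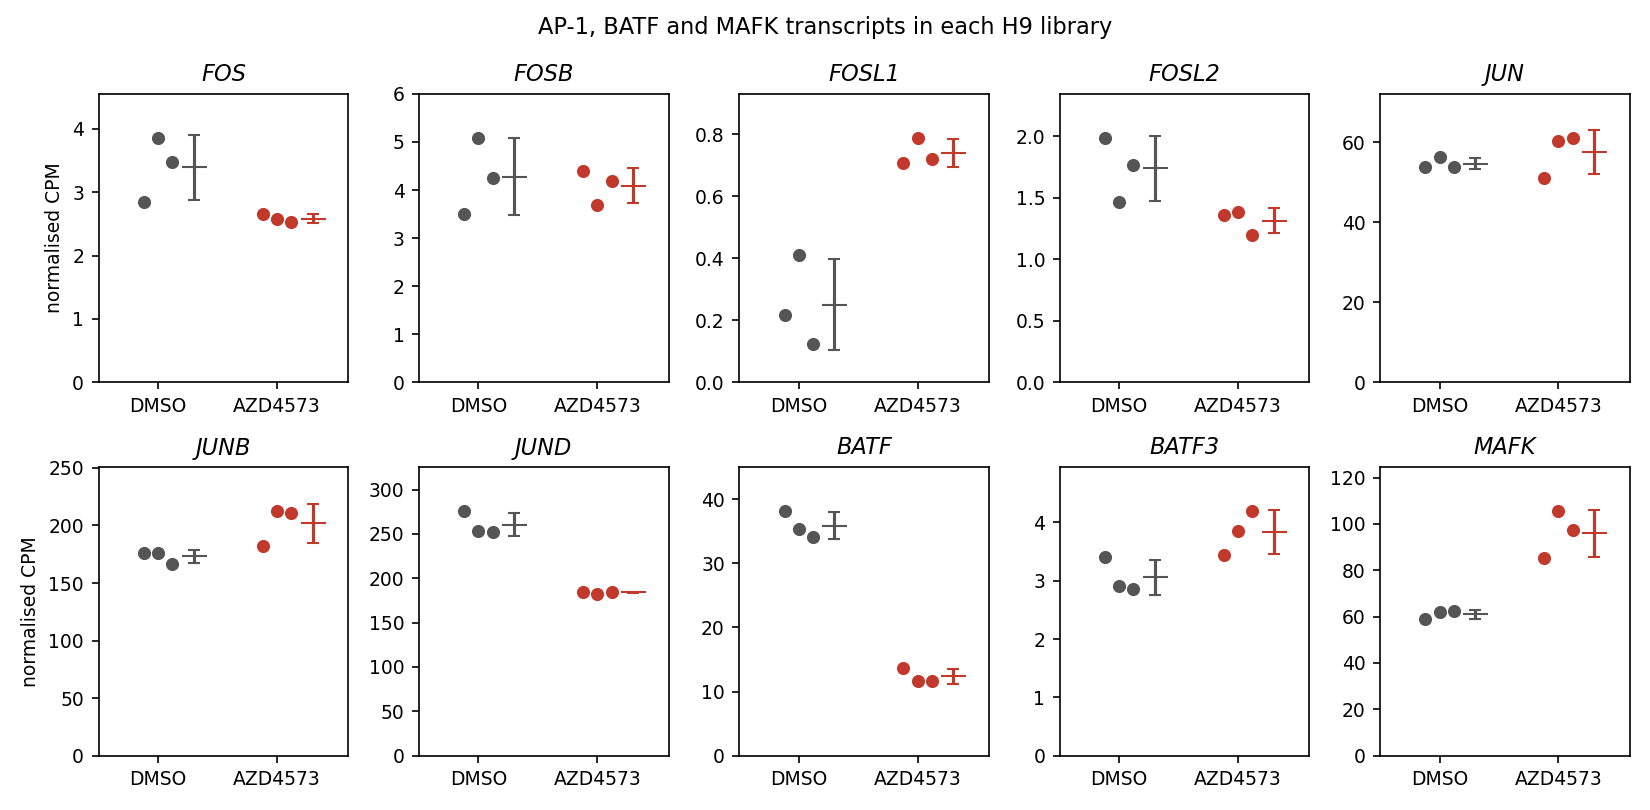
Normalised CPM (vertical axes, each from 0) of the 10 transcripts in each DMSO library (grey) and AZD4573 library (red), replicates 1 to 3 from left to right, with the mean and SD of 3 libraries at the right of each group. The BATF libraries sit between 34.1 and 38.2 CPM with DMSO and between 11.7 and 13.7 CPM with AZD4573, whereas those of JUN and FOSB overlap; MAFK, BATF3 and JUNB are higher on this TMM scale but not when scaled to the mitochondrial mRNAs.

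Promoter sequences of 7 members were at hand from RefSeq (GRCh38.p14), each covering 250 bases before the RefSeq start of the gene and 50 bases from it. The FOSL2 window (chromosome 2 from 28392608 to 28392907) lies inside the gene as GENCODE places it, from 28392448 on. FOSL1, BATF3 and MAFK have no entry. They were searched on both strands for TGANTCA (the AP-1 element), TGACGTCA (the cAMP response element), TGACATCA (a variant bound by Jun-ATF dimers), TATAAA and the CArG box bound by SRF, none of which overlapped another. Below are the transcript that fell most (BATF), the Jun transcript that fell (JUND), the one that rose with TMM but not when scaled to the mitochondrial mRNAs (JUNB), and the one that passed in neither direction with TMM (JUN), with motif letters in capitals.

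BATF (chr14:75522219-75522518, plus strand): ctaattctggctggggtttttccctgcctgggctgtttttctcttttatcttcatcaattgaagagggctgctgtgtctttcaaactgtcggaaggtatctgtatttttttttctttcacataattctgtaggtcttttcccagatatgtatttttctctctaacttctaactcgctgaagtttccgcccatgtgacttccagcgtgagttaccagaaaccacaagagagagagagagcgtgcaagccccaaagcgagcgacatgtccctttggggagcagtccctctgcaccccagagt
JUND (chr19:18281573-18281872, minus strand): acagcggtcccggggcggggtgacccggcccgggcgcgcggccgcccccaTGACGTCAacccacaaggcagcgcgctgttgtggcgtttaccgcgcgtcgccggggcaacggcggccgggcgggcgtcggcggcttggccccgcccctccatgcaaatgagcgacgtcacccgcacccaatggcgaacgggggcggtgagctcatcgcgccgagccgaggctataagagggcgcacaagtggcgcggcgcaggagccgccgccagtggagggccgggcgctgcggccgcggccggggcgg
JUNB (chr19:12791236-12791535, plus strand): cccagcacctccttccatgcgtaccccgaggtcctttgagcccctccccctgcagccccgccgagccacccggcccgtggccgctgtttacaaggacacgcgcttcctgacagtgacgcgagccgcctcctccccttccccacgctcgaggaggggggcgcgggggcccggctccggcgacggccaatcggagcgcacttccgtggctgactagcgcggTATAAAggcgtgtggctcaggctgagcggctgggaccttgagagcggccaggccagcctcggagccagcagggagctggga
JUN (chr1:58783998-58784297, minus strand): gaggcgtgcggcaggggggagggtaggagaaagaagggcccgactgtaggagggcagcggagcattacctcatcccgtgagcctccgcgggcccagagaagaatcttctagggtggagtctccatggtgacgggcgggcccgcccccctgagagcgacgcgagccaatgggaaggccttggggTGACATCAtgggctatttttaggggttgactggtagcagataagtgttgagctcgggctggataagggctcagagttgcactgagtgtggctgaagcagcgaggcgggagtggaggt

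The BATF window held none of the 5 motifs and had 46.0% G and C with 7 CpG dinucleotides, beside 62.0 to 77.0% in the other 6 members and a median of 58.3% in all promoters. The JUND window was the richest at 77.0% with 49 CpG, and held TGACGTCA 200 to 193 bases before the start. JUNB held TATAAA 31 to 26 bases before the start, as did FOS (33 to 28) and FOSB (30 to 25), while JUN held TGACATCA 67 to 60 bases before it. FOSL2 held TGACTCA, a match to the AP-1 element, at bases 5 to 11 from its RefSeq start, which lies downstream of the GENCODE start. Of 27305 promoters of this length, 3264 held TATAAA, 2120 TGANTCA (7.76%), 739 TGACATCA (2.71%), 540 TGACGTCA (1.98%) and 351 a CArG box (1.29%). TATAAA occurred in FOS, which fell, in JUNB, which rose with TMM but not when scaled to the mitochondrial mRNAs, and in FOSB, which was not called. A match of letters is not evidence of binding, and the absence of one says nothing of the factor.

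To compare levels between genes, counts were also divided by the length of the exons (GENCODE release 44), giving RPKM. With DMSO, JUND was the most abundant at 135 ± 6.84 RPKM (SD, n = 3), followed by JUNB at 94.6 ± 2.93, BATF at 38.7 ± 2.24, JUN at 15.1 ± 0.386 and MAFK at 13.6 ± 0.431 (SD, n = 3 each), with no overlap between neighbours. The other 5 were scarce. BATF3 (1.19 RPKM), FOS (1.07) and FOSB (0.770) overlapped with their neighbours in this order, as did FOSL2 (0.243) and FOSL1 (0.132). With AZD4573, JUNB led at 110 ± 9.32 RPKM, above JUND at 95.4 ± 0.558, MAFK at 21.5 ± 2.28, JUN at 15.9 ± 1.52 and BATF at 13.3 ± 1.21 (SD, n = 3 each), of which only JUN and BATF overlapped. Scaled by the longest transcript instead, MAFK lay above JUN and FOS above BATF3 with DMSO. Summed per family, Jun transcripts exceeded Fos transcripts by 95.2 to 133-fold in the DMSO libraries and by 95.7 to 109-fold in the AZD4573 libraries, so that Fos transcripts were scarce in both.

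JUND (ENSG00000130522, GRCh38 chromosome 19 from 18279694 to 18281622, minus strand, a single exon of 1929 bases) encodes the Jun protein that is expressed in most resting cells. It was at 276, 253 and 253 CPM in DMSO replicates 1 to 3 and at 185, 183 and 184 CPM in AZD4573 replicates 1 to 3. The groups lay far apart and the AZD4573 libraries were nearly alike. This is a log2 fold change of -0.50 ± 0.0440 (SE, the standard error; adjusted p = 2.0e-07), or of -1.24 when scaled to the mitochondrial mRNAs. Omitting any 1 library gave -0.54 to -0.47.

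JUNB (ENSG00000171223, chromosome 19 from 12791486 to 12793315, plus strand) is also a single-exon gene, of 1830 bases, and its product opposes JUN at some promoters and drives proliferation in CD30-positive lymphomas. Its level was 176, 176 and 167 CPM in the DMSO libraries and 182, 213 and 211 CPM in the AZD4573 libraries. All AZD4573 libraries lay above all DMSO libraries, with replicate 1 closest to them. JUNB thus had a log2 fold change of 0.22 ± 0.0566 (SE; adjusted p = 0.0030) with TMM, but 0.12 (adjusted p = 0.061) with library size as the only scaling and -0.52 (adjusted p = 4.7e-07) when scaled to the mitochondrial mRNAs. HOOK2, on the opposite strand, shares 259 of the 1830 exon bases of JUNB, and counting without strand cannot separate their reads. HOOK2 was at 15.5 CPM with DMSO and 22.2 CPM with AZD4573, both well below JUNB.

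JUN (ENSG00000177606, chromosome 1 from 58776845 to 58784048, minus strand), which encodes the founding AP-1 subunit and main target of the JNK kinases, was at 53.9, 56.3 and 53.8 CPM with DMSO and at 51.2, 60.2 and 61.2 CPM with AZD4573. The groups overlapped because AZD4573 replicate 1 was the lowest of the 6 libraries. The log2 fold change was 0.07 (95% interval -0.06 to 0.21, adjusted p = 0.31), and without AZD4573 replicate 1 it was 0.15 with an adjusted p of 0.013. It turned to -0.03 (adjusted p = 0.67) with library size only and to -0.67 (adjusted p = 1.1e-07) when scaled to the mitochondrial mRNAs. LINC01135, a long noncoding RNA that starts 336 bases away on the opposite strand, had 4, 2 and 9 counts with DMSO and 15, 16 and 14 with AZD4573, passed the filter only through the latter, and shares no exon base with JUN. MIR3188, which starts 455 bases from JUND on the other strand, had 0 counts in each library, and was not tested.

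BATF (ENSG00000156127, chromosome 14 from 75522455 to 75546993, plus strand, 928 exon bases) encodes the factor that with IRF4 is needed for several T-helper fates. Its level was 38.2, 35.4 and 34.1 CPM in the DMSO libraries and 13.7, 11.7 and 11.7 CPM in the AZD4573 libraries. The groups were wide apart, and the mean with AZD4573 was 34.4% of that with DMSO. BATF had a log2 fold change of -1.54 ± 0.0741 (SE; adjusted p = 6.6e-10), a 2.91-fold lower level, and of -2.28 when scaled to the mitochondrial mRNAs. It ranked 1077 of 17678 from the largest fall.

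BATF3 (ENSG00000123685, chromosome 1 from 212686417 to 212699840, minus strand), known for its role in cross-presenting dendritic cells and its expression in CD30-positive lymphomas, was a minor transcript. Its counts were 267, 213 and 211 with DMSO and 175, 220 and 256 with AZD4573, equal to 3.40, 2.91 and 2.86 CPM and to 3.44, 3.86 and 4.19 CPM. The groups did not overlap, but DMSO replicate 1 and AZD4573 replicate 1 nearly met. Its log2 fold change of 0.33 ± 0.131 (SE; adjusted p = 0.037) passed the threshold with TMM but turned to -0.42 (adjusted p = 0.0099) when scaled to the mitochondrial mRNAs. It did not pass without DMSO replicate 2 or 3 or AZD4573 replicate 2 or 3 (adjusted p from 0.081 to 0.15), or in DESeq2 (0.057).

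MAFK (ENSG00000198517, chromosome 7 from 1530702 to 1543043, plus strand), which encodes a DNA-binding partner of NRF2 and BACH proteins, was at 58.8, 62.0 and 62.3 CPM with DMSO and at 85.3, 106 and 97.2 CPM with AZD4573. Each AZD4573 library exceeded each DMSO library by more than 20 CPM. MAFK had a log2 fold change of 0.66 ± 0.0667 (SE; adjusted p = 9.0e-07) with TMM, a 1.57-fold higher level, and -0.09 (adjusted p = 0.24) when scaled to the mitochondrial mRNAs. TMEM184A, on the opposite strand, shares 809 of the 4470 exon bases of MAFK, and its counts went from 16, 19 and 15 with DMSO to 25, 54 and 48 with AZD4573, next to 4342 to 6017 for MAFK.

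The Fos transcripts were few in all libraries. FOS (ENSG00000170345, chromosome 14 from 75278826 to 75282230, plus strand), the prototype immediate-early gene, had 223, 283 and 256 counts with DMSO and 135, 147 and 154 with AZD4573. These are 2.84, 3.86 and 3.48 CPM and 2.65, 2.58 and 2.52 CPM, so that the groups did not overlap although DMSO replicate 1 lay close to the AZD4573 libraries. FOS had a log2 fold change of -0.39 ± 0.142 (SE; adjusted p = 0.023), or of -1.13 when scaled to the mitochondrial mRNAs. The adjusted p rose above 0.05 without DMSO replicate 2 (0.11) or 3 (0.054) or AZD4573 replicate 2 (0.053) or 3 (0.061).

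FOSB (ENSG00000125740, chromosome 19 from 45467995 to 45475179, plus strand), which is induced along with FOS by growth signals, was at 3.49, 5.09 and 4.25 CPM with DMSO and at 4.40, 3.68 and 4.19 CPM with AZD4573. The groups overlapped, and the log2 fold change of -0.06 had a 95% interval from -0.37 to 0.25 (adjusted p = 0.70), whereas scaled to the mitochondrial mRNAs it was -0.80 (adjusted p = 0.00011). FOSL2 (ENSG00000075426, chromosome 2 from 28392448 to 28417317, plus strand), encoding Fra-2, had 156, 107 and 130 counts with DMSO and 69, 79 and 73 with AZD4573. Its 1.99, 1.46 and 1.76 CPM with DMSO were all above the 1.36, 1.39 and 1.20 CPM with AZD4573, and its log2 fold change of -0.41 (95% interval -0.80 to -0.01) had an adjusted p of 0.059. Without DMSO replicate 2 it was -0.53 (adjusted p = 0.031), with library size only -0.51 (adjusted p = 0.022) and scaled to the mitochondrial mRNAs -1.15 (adjusted p = 3.4e-05), and it passed the threshold in each of these.

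FOSL1 (ENSG00000175592, chromosome 11 from 65892049 to 65900573, minus strand), encoding Fra-1, was the scarcest member with DMSO, at 17, 30 and 9 counts, against 36, 45 and 44 with AZD4573. In CPM it went from 0.217, 0.410 and 0.122 to 0.707, 0.789 and 0.721, so that the groups did not overlap. FOSL1 had a log2 fold change of 1.56 ± 0.393 (SE; 95% interval 0.71 to 2.41, adjusted p = 0.0027), and 0.82 (adjusted p = 0.066) when scaled to the mitochondrial mRNAs. It passed the filter on low counts only through the AZD4573 libraries, where it is high. Its fold change and p are therefore given as a description of a member and not as evidence of a rise. The log2 fold change was 1.23 without DMSO replicate 3, the library with 9 counts, and 2.10 without DMSO replicate 2, the library with 30. FOSL1P1, a pseudogene, had at most 4 counts in a library.

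**Figure D2:**
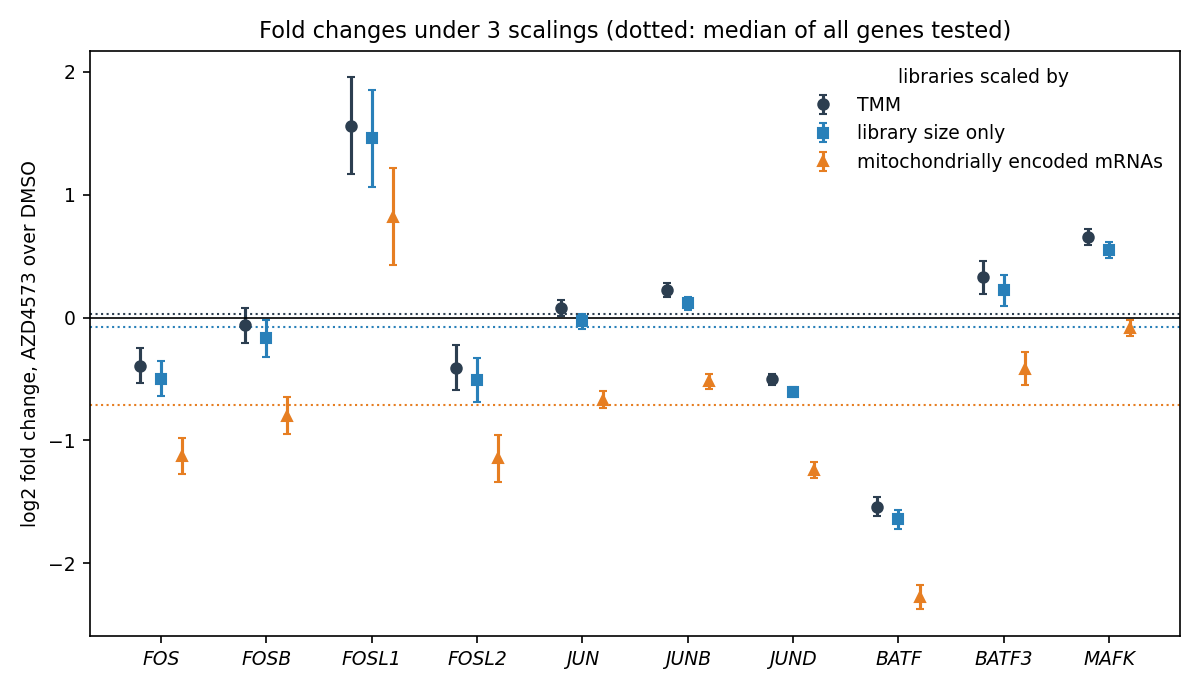
Log2 fold change of AZD4573 over DMSO (vertical axis, with standard error) of each transcript with libraries scaled by TMM, by library size only, or to the mitochondrially encoded mRNAs, and the median of all genes tested under each scaling as a dotted line. A scaling moves all genes together, so the distances from the dotted lines are nearly alike by construction, while JUNB, BATF3 and MAFK cross 0 under the mitochondrial scaling and JUN also with library size only.

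A change of scaling moves the log2 fold changes of all genes by about the same amount, so the distance of a gene from the median of all genes is nearly fixed by construction and is given as a description. BATF lay 1.57 below the median with TMM and 1.56 below it when scaled to the mitochondrial mRNAs on the log2 scale, and JUND 0.53 below it under both. MAFK lay 0.63 above it under both, and JUNB 0.20 and 0.19 above it.

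The composition of each family within a library does not depend on scaling between libraries. Among Jun transcripts per kilobase, JUND held 56.2, 54.0 and 55.3% with DMSO and 45.7, 41.6 and 42.0% with AZD4573. JUNB held 37.9, 39.6 and 38.5% with DMSO and 47.5, 51.1 and 50.6% with AZD4573, so that JUNB replaced JUND as the leading Jun transcript in each AZD4573 library. JUN went from 6.17 ± 0.284% to 7.15 ± 0.360% (SD, n = 3). In the BATF family, BATF3 went from 2.98 ± 0.123% to 10.1 ± 1.62% (SD, n = 3), with BATF making up the remainder. In the Fos family, FOS went from 48.2 ± 1.93% to 38.2 ± 0.547% and FOSL1 from 5.83 ± 2.76% to 18.5 ± 1.49% (SD, n = 3), while FOSB (34.7% in both groups) and FOSL2 (11.3 and 8.63%) overlapped between groups. Of these 9 shares, 7 did not overlap between groups, while the CPM of 38.7% of all genes tested were lower and of 39.0% higher without overlap. Each of the 7 had p = 0.10 in a two-sided exact permutation test over 3 against 3 libraries. That is the smallest p the test allows and became 0.13 after Benjamini-Hochberg adjustment over the 9, so that none could pass 0.05. Shares of a family add up to the whole, so they are not separate results, and those of BATF and BATF3 are the same comparison. FOSL1 passed the filter on low counts only through the AZD4573 libraries, so its share, which also lowers that of FOS, is a description.

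**Figure D3:**
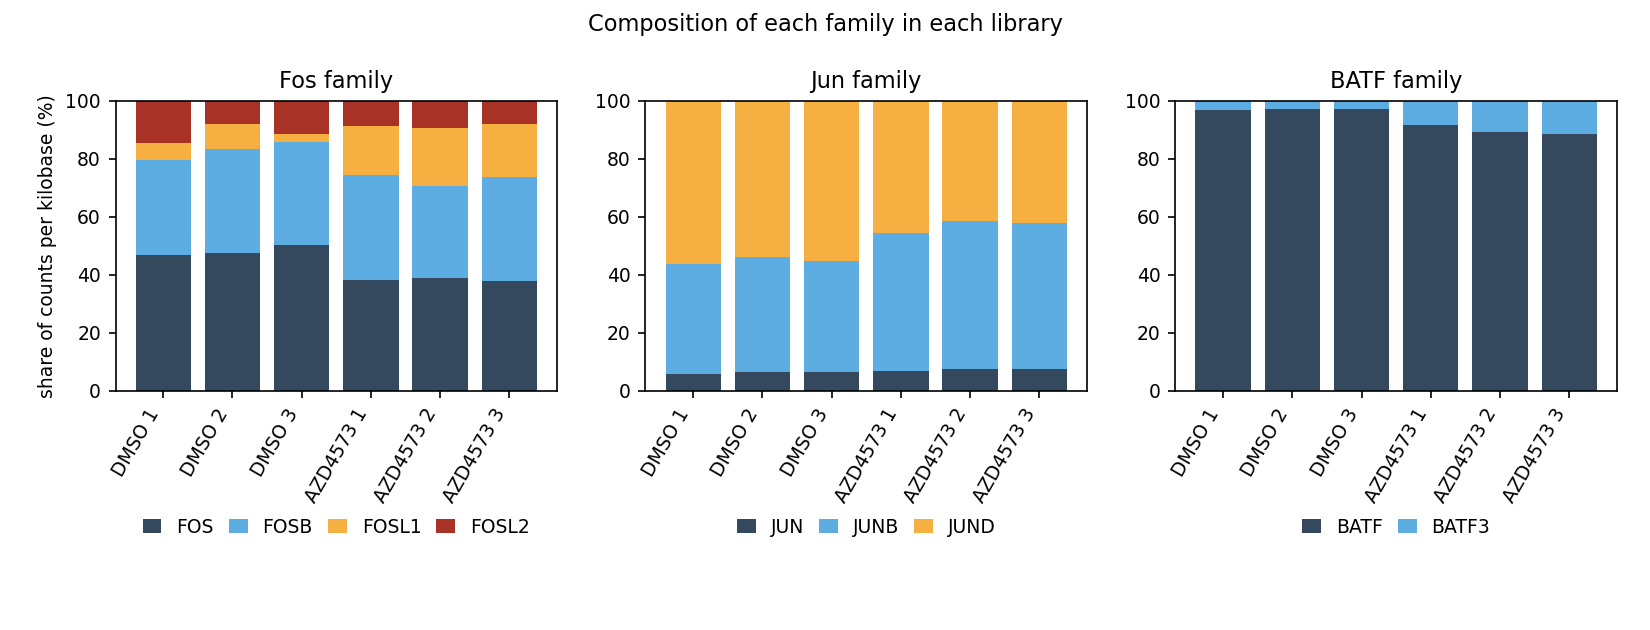
Share of counts per kilobase of exon (vertical axis, %) that each member took of its family in each library, stacked to 100%. JUNB passes JUND in the 3 AZD4573 libraries, and BATF3 takes 8.34 to 11.5% of the BATF family there, against 2.88 to 3.12% with DMSO.

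Across families, summed Jun transcripts per kilobase were 6.15 ± 0.141 times the summed BATF transcripts with DMSO and 15.0 ± 1.73 times with AZD4573 (SD, n = 3), with no overlap. The ratio of MAFK to BATF rose 4.56-fold and that of JUNB to BATF 3.38-fold, and these ratios are free of the scaling. They restate the levels of genes already seen to move apart with TMM, each without overlap between groups. The ratios therefore could not overlap and are given as a description.

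**Figure D4:**
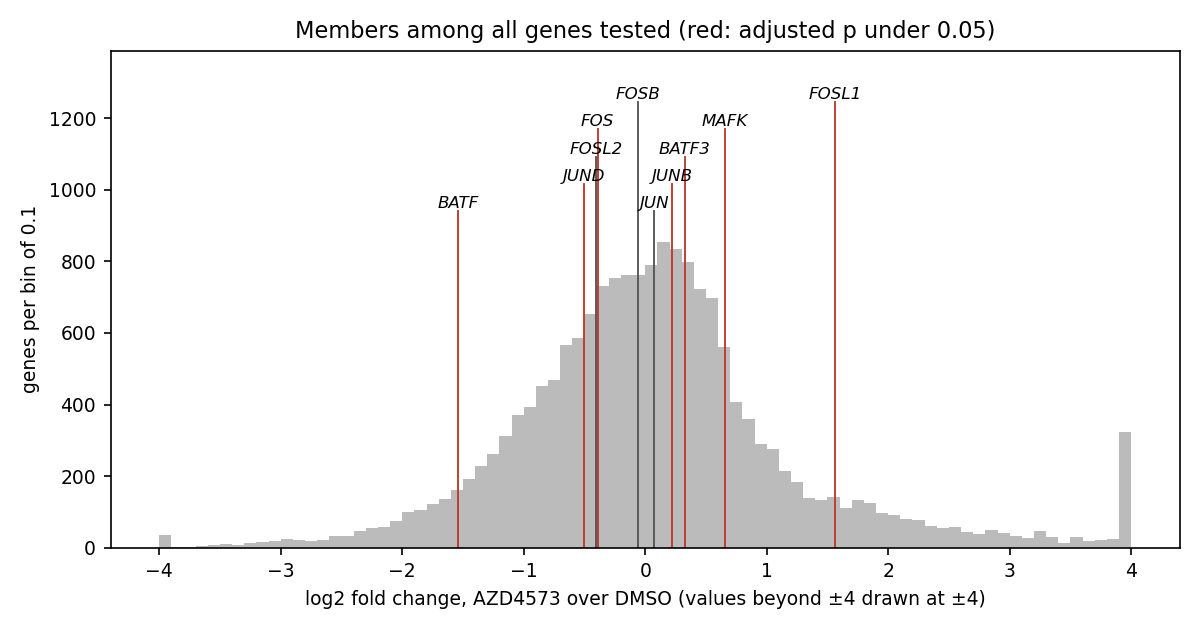
Number of genes (vertical axis) by log2 fold change with TMM (horizontal axis) over all 17678 genes tested, with lines at the 10 members, red where the adjusted p was under 0.05. Values beyond 4 in either direction are drawn at 4. FOSL1 passed the filter on low counts only through the AZD4573 libraries. BATF and FOSL1 lie farthest from 0 at -1.54 and 1.56, and the other 8 members lie between -0.50 and 0.66, with MAFK, BATF3 and JUNB right of 0 here but left of it when scaled to the mitochondrial mRNAs.

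Members were also set beside genes of like span, as a description. Whether length plays a part was not tested. JUNB and JUND, both of a single exon, had log2 fold changes of 0.22 and -0.50 with TMM. Over the 403 protein-coding genes tested that span up to 2.5 kb, the median was 0.19 and the middle 50% lay between -0.50 and 0.66. JUNB was within this range and JUND at its lower edge. BATF (24539 bases), FOSL2 (24870), BATF3 (13424) and MAFK (12342) span 10 to 25 kb, where the median over 3113 genes was -0.07 and the middle 50% of genes lay between -0.68 and 0.44. BATF was below this range and MAFK above it. The genes nearest to BATF over the 6 libraries, by Euclidean distance of log2 CPM from the DMSO mean among 8823 protein-coding genes with at least 10 CPM, (prior count 2) were NCK1, TMEM64 and LIN28B (distances 0.08, 0.08 and 0.09). Those nearest to FOSL1 were H2AC18, HRH2 and RALGPS1, at distances of 0.84, 0.97 and 0.98.

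Genes around AP-1 were followed through 6 lists. Of 17 further bZIP factors, 13 were tested, of which 8 fell and 5 rose (median log2 fold change -0.70, with 0.03 for all genes tested). Each list is to be read against all genes tested, of which 37.4% fell and 37.3% rose with TMM, and 67.2% fell and 12.1% rose when scaled to the mitochondrial mRNAs. MAFA, a large Maf factor of pancreatic beta cells, fell from 4.12 ± 0.555 to 0.247 ± 0.0268 CPM (SD, n = 3; log2 fold change -4.04, adjusted p = 8.8e-10). The small Maf MAFF fell by 1.53, and MAFG, another small Maf, was at 102 ± 2.84 CPM with DMSO and 302 ± 24.1 CPM with AZD4573 (SD, n = 3; log2 fold change 1.57, named after its value was seen). BACH2, a repressor that pairs with small Maf proteins and restrains effector T-cell genes, rose from 135 ± 2.65 to 560 ± 54.0 CPM (SD, n = 3; log2 fold change 2.05, adjusted p = 2.3e-11). JDP2, a repressor that pairs with Jun, rose from 1.66 ± 0.131 to 6.71 ± 0.609 CPM (SD, n = 3; log2 fold change 2.02). Scaled to the mitochondrial mRNAs, 8 of the 13 fell and 4 rose.

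The 5 partners of BATF and AP-1 on composite elements all fell (37.4% of all genes tested did), with a median of -0.47. IRF4 among them passed the filter on low counts only through the DMSO libraries, where it is high. With at least 10 counts in every library, 4 partners were called lower (6037 of 15247 genes). NFATC3 fell from 130 ± 5.60 to 67.2 ± 1.71 CPM (SD, n = 3; log2 fold change -0.95, adjusted p = 8.0e-10). IRF8, a BATF partner in myeloid and lymphoid cells, fell by 0.47 on the log2 scale (adjusted p = 0.00039). IRF4, the main partner in T cells, was near the limit of detection, with 16, 15 and 13 counts with DMSO and 3, 2 and 1 with AZD4573 (named after its values were seen).

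Of 15 MAP kinases that lie upstream of AP-1, 14 were tested, of which 6 fell and 7 rose with TMM (37.4% and 37.3% of all genes), and 11 fell and 1 rose when scaled to the mitochondrial mRNAs (67.2% and 12.1%). The kinases that activate JNK, MAP2K4 and MAP2K7, were the largest falls, from 74.7 ± 3.74 to 19.9 ± 2.75 CPM and from 107 ± 3.26 to 47.4 ± 4.85 CPM (SD, n = 3; log2 fold changes -1.92 and -1.18). MAP2K6 and MAP2K5, which activate p38 and ERK5, were the largest rises with TMM (1.21 and 0.61).

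Of 13 factors that act at the FOS and JUN promoters, 7 fell, 1 rose and 5 were not called with TMM (37.4% of all genes fell and 37.3% rose), while all 13 fell when scaled to the mitochondrial mRNAs (67.2% of all genes did). MRTFA, a coactivator of SRF, fell from 50.4 ± 2.39 to 14.2 ± 1.34 CPM (SD, n = 3; log2 fold change -1.82), and CREB1 from 51.3 ± 1.41 to 16.6 ± 2.23 CPM (SD, n = 3; log2 fold change -1.63). SRF itself was at 359 and 348 CPM (adjusted p = 0.32; named after its value was seen), and STAT3 was the gene that rose with TMM, by 0.19 (adjusted p = 0.00063). Of 7 genes of the ubiquitin pathway that degrades Jun proteins, 4 fell and 2 rose with TMM (37.4% and 37.3% of all genes), and 7 fell when scaled to the mitochondrial mRNAs (67.2%). The ligase subunits COP1 and FBXW7 fell, with log2 fold changes of -1.52 and -1.22, while NDFIP1, an activator of the ligase ITCH, and DDB1 rose by 0.15 and 0.13 with TMM. Neither rise was called with library size only, without a filter on low counts, or without DMSO replicate 2 or 3, and 1 gene of the list was called higher without AZD4573 replicate 3.

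Of 29 target genes of AP-1 or BATF known from other systems, 22 were tested, of which 12 fell and 9 rose with TMM (median -0.58; 37.4% and 37.3% of all genes), and 16 fell and 4 rose when scaled to the mitochondrial mRNAs (67.2% and 12.1%). Some of the 22 passed the filter on low counts only through the group where they are high. With at least 10 counts in every library, 9 fell and 7 rose with TMM (6037 and 5913 of 15247 genes). PRDM1, which encodes BLIMP-1 and has a BATF-IRF4 element, fell from 4.48 ± 0.276 to 0.864 ± 0.102 CPM (SD, n = 3; log2 fold change -2.37, adjusted p = 7.9e-09). DUSP1, a MAP kinase phosphatase, had 61, 100 and 80 counts with DMSO and 9, 14 and 7 with AZD4573. It passed the filter on low counts only through the DMSO libraries, so its fold and p are left out. CCND1, encoding cyclin D1, rose from 0.402 ± 0.125 to 1.16 ± 0.214 CPM (SD, n = 3; log2 fold change 1.52). IL13, a type 2 cytokine, had 4, 0 and 3 counts with DMSO and 60, 62 and 57 with AZD4573. It passed the filter on low counts only through the AZD4573 libraries, so neither its fold nor its p is given. IL2, the classical AP-1 and NFAT target, was at 2.58 ± 0.261 CPM with DMSO and 1.06 ± 0.159 CPM with AZD4573 (SD, n = 3; log2 fold change -1.29, named after its value was seen). TNFRSF8, which encodes CD30 and whose promoter JUNB binds, was at 166 ± 4.28 CPM with DMSO and 50.3 ± 3.82 CPM with AZD4573 (SD, n = 3; log2 fold change -1.72, also named after its value was seen). Other targets of the list went the other way with TMM. TNF was at 15.0 ± 1.58 CPM with DMSO and 27.7 ± 2.61 CPM with AZD4573 (SD, n = 3; log2 fold change 0.89), and VEGFA rose by 0.77. CD69 and IL2RA overlapped between groups. These genes too were named after their values were seen.

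**Figure D5:**
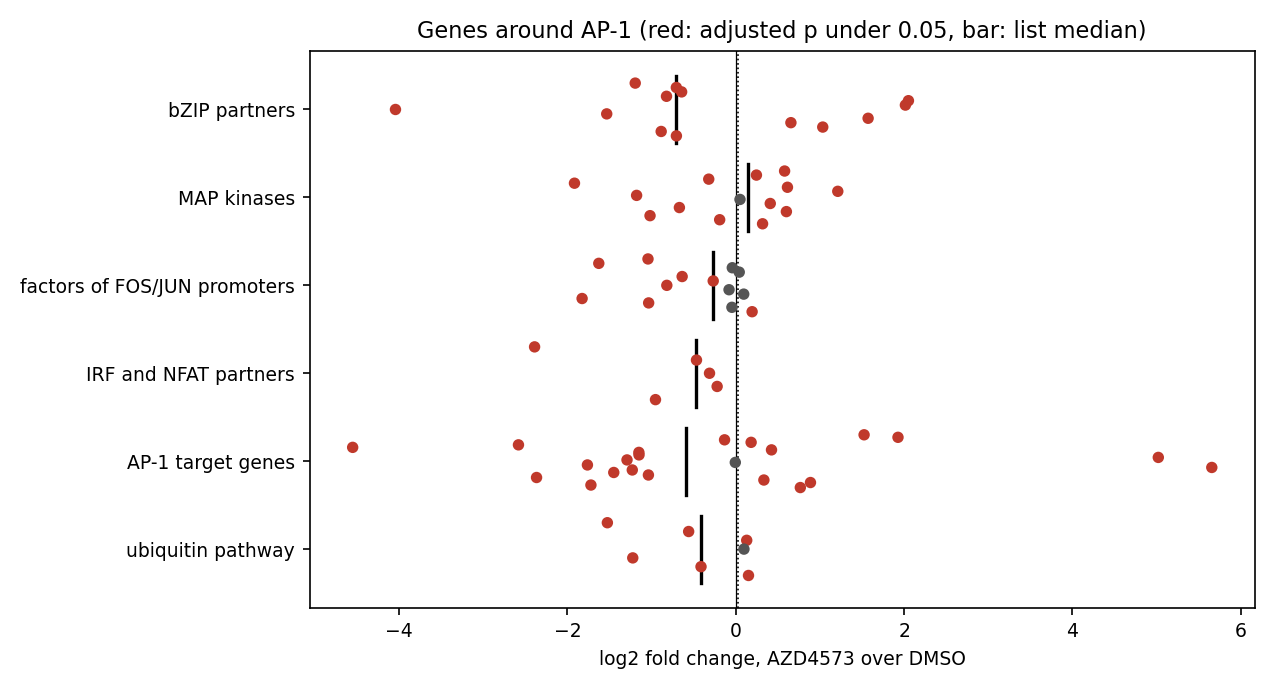
Log2 fold change with TMM (horizontal axis) of each gene tested in 6 lists around AP-1, red where the adjusted p was under 0.05, with a black bar at each list's median and a dotted line at the median of all genes tested. List medians run from -0.70 for the bZIP partners to 0.15 for the MAP kinases, and each list but that of the IRF and NFAT partners has called genes on both sides of 0, of which many on the right move to the left when scaled to the mitochondrial mRNAs.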

How the data were processed

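Bulk RNA-seq of H9 cells covered 3 DMSO and 3 AZD4573 libraries, grouped by their labels. The authors trimmed reads with Cutadapt 2.3, aligned them to GRCh38 with STAR 2.7.8a and deposited expected counts per gene from RSEM 1.3.3, run at default parameters that ignore strand. These deposited values are whole and not normalized. Per the labels the libraries were made by poly(A) selection, whereas the supplemental methods give rRNA depletion, and the discrepancy was not settled. Genes were filtered with edgeR 4.0.16 (minimum count 10) in R 4.3.3, leaving 17678, scaled by TMM and compared with its quasi-likelihood test without a replicate block, with Benjamini-Hochberg adjustment. Standard errors were taken from the fold change and its F value. Alternatives were RLE factors, library size only, the 13 mitochondrial mRNAs, other filters, a replicate block, DESeq2 1.42.0 and each library left out. The procedure was tested on simulated data. The members and the 6 lists were chosen with earlier results of these data known. Named genes were the 10 members, their overlapping or divergent neighbours within 2 kb, up to 2 largest called falls and rises per list with at least 1 CPM in the higher group, and the nearest profiles. No library repeated another, since replicates of a group differed beyond sampling error (chi-square divided by its degrees of freedom, 5.29 to 19.4). SDs, standard errors, intervals and p-values reflect the spread between the 3 libraries of a group.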

Additional observations from a re-analysis of the deposited data

How the results depend on the processing

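Of 404 values recomputed under alternatives, 354 changed neither sign nor call, or moved little. The log2 fold changes of BATF and JUND kept their sign and an adjusted p under 0.05 under each. Their size moved to -2.28 and -1.24 when scaled to the mitochondrial mRNAs. JUND was 1.42-fold lower with TMM and so was not called at a fold of at least 1.5. Scaled to the mitochondrial mRNAs, which follows the shift of all genes, JUN (-0.67), JUNB (-0.52), BATF3 (-0.42) and MAFK (-0.087) reversed, FOSL1 no longer passed (0.82), FOSB (-0.80) and FOSL2 (-1.15) passed, and 8 members were lower and 0 higher (with 11878 and 2144 of all genes). That scaling also gave 11 lower and 1 higher MAP kinases, 13 and 0 promoter factors, 4 higher target genes, and 7 lower and 0 higher genes of the ubiquitin pathway. With library size only, JUN reversed (-0.031), JUNB (0.12) and BATF3 (0.22) no longer passed, FOSL2 did (-0.51), and 2 members and 0 ubiquitin genes were higher. BATF3 also missed the threshold without a filter (0.28), in DESeq2 (0.33) and with a replicate block (0.33), where no other member's call changed. Libraries of the same number showed no pairing (correlations -0.0208, 0.0417 and 0.0316), though so few libraries cannot exclude that they were handled together. Without a filter 0 ubiquitin genes were higher. With at least 10 counts in every library 2 promoter factors were higher, FOSL1 was not tested, and 3 members were higher. That filter also gave 9 lower and 7 higher target genes and 4 lower partners on composite elements (with 6037 and 5913 of all genes). At a fold of at least 1.5, 1 member was lower and 2 higher, and 4191 and 4012 of all genes. With the longest transcript, the FOSL1 share rose by 10.2 points rather than 12.6. The causes were not tested where not named.

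When libraries were omitted singly, the log2 fold change ranged from -0.52 to -0.30 for FOS, from -0.20 to 0.070 for FOSB (reversed to 0.070 without DMSO replicate 2 and to 0.0033 without AZD4573 replicate 2), from -0.53 to -0.31 for FOSL2, from 0.023 to 0.15 for JUN and from 0.25 to 0.40 for BATF3. Members called lower ranged from 2 to 3 and higher from 3 to 5, higher target genes from 7 to 9, higher promoter factors from 1 to 2 and higher ubiquitin genes from 0 to 2. Depth limits FOSL1 most, with 9 to 30 counts per DMSO library.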
